A study of Mus musculus with 4 samples.

Results

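Il10, Il6, Il17a, Il22, Areg and Tgfb1, 6 genes of 28625 in the deposited matrices, encode secreted factors outside the type 2 set of Il4, Il5 and Il13. They were chosen by name, with earlier results of these data known. Their transcripts were followed in single CD4 T cells of a type 2 lung response. Cells were described by their Il13, Il4, Foxp3, Gata3 or Cxcr5 transcripts and by which members occurred together. Mice received 10 µg of Alternaria, an allergenic mould extract, with 25 µg of the antigen NP-OVA into the nose, and mediastinal lymph nodes were taken on day 7. Sorted cells were then stimulated for 30 minutes with PMA and ionomycin, a drug pair that activates T cells past their receptor, so every level below is that of a restimulated cell. From 3 C57BL/6 mice, TCRβ+ CD4+ CD44+ PD-1+ CXCR5+ cells were taken as the Tfh sort. In the 4get strain GFP reports Il4 transcription, and from 3 such mice TCRβ+ CD4+ CD44+ GFP+ cells were taken as the IL-4 reporter sort. No untreated mice were analysed here. Each mouse was identified by a hashtag antibody and is the replicate throughout (n = 3 mice in each sort). The p-values come from sums per mouse, but a small p-value does not show that the mice agreed on that gene. Areg by Il13 in the Tfh sort, given below, passed the main test with mouse 3 lower, and did not pass a robust form of it. Values per mouse are therefore given beside the main tests of the members.

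IL-10 restrains antigen-presenting cells and T cells, and in CD4 T cells it is made by regulatory cells and by late effector cells of several kinds. IL-6 signals through the shared receptor chain gp130 and favours the Tfh and Th17 programmes, but is better known as a product of myeloid and stromal cells than of T cells. IL-17A recruits neutrophils and IL-22 acts on epithelium, and both mark Th17-type cells. Amphiregulin, from Areg, is an EGF receptor ligand linked to tissue repair by type 2 lymphocytes and regulatory T cells, and TGF-β1, from Tgfb1, is secreted in a latent form that must be activated outside the cell. Il13 and Il5 are effector products of Th2 cells, which depend on GATA3, while CXCR5 takes Tfh cells to B cell follicles.

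In GRCm38 with GENCODE M21, Il6 lies at chr5:30013114-30019981 and Areg at chr5:91139599-91148432, both on the plus strand. Il10 lies at chr1:131019845-131024974, Il17a at chr1:20730905-20734496, Il22 at chr10:118204942-118210047 and Tgfb1 at chr7:25687002-25705077, also on the plus strand. Il22 has a near-identical copy, Iltifb, at chr10:118289629-118295038 on the minus strand, so Il22 counts are uncertain. The 250 bases before the start of Il6 and Areg are printed because, of the 5 members tested by Il13 in both sorts, these had the largest differences in the reporter sort. Both sequences are from RefSeq on GRCm38.p6 (5 of the 6 members matched its promoter table), plus strand, 5′ to 3′. Il6 spans chr5:30012864-30013113 and Areg chr5:91139349-91139598. Capitals mark matches to AP-1 (TGANTCA) and NF-kB (GGGA, any 2 bases, TTCC) in Il6 and to the CRE (TGACGTCA) in Areg.
Il6: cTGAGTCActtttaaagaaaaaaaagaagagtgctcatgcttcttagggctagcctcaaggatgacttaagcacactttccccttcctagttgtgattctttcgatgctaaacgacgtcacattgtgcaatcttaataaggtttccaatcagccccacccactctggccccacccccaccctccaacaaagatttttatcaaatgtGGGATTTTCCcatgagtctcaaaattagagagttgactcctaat
Areg: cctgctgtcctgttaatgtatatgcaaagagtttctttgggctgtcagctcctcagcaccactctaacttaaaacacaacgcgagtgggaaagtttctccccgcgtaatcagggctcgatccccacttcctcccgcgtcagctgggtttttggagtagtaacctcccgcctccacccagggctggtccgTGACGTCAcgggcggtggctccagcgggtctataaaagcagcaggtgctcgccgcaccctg
The Il6 window held AP-1 letters at -249 to -243 and NF-kB letters at -44 to -35, counted from the gene start. The Areg window held the CRE at -61 to -54. On both strands over 27025 promoters of the same length, AP-1 letters occurred in 6.87%, the CRE in 1.62% and the NF-kB letters in 1.17%. The NFAT core (GGAAA, both strands) occurred in 55.6% of promoters, 3 times in Il6, where the match at -39 to -35 overlaps the NF-kB match, and 1 time each in Areg and Il22. These matches describe letters and are not evidence of binding.

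The Tfh sort gave 3916 passing cells, of which 3780 were assigned to a mouse and 3102 were kept as T-marked. T-marked cells have at least 1 UMI (a counted molecule) of 6 T cell genes and under 2 UMIs of each list of B cell, CD8, macrophage and mast cell or basophil genes. For the IL-4 reporter sort these numbers were 4585, 3989 and 3572. T-marked cells per mouse numbered 1161, 1254 and 687 in the Tfh sort, with 2661636 to 4520851 UMIs a mouse, and 1193, 1052 and 1327 in the reporter sort, with 10580599 to 12669668. Median depth was 2788 UMIs a cell (Tfh sort) and 6642 (reporter sort). A Cd4 UMI was found in 55.3% and 74.7% of T-marked cells. No cell barcode was shared between the libraries (0). Strain, sort, chemistry (10x version 2 against 3) and sequencer differed together, so levels were not tested between sorts. Background from free RNA was read from B-like cells, which hold 2 or more B cell UMIs and no T cell UMI (214 in the Tfh sort at a median of 1994 UMIs, 44 in the reporter sort at 4302).

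Areg and Tgfb1 were widespread and Il10 was found in a minority of cells, whereas Il6, Il22 and Il17a were rare. Among T-marked cells of the Tfh sort, a Tgfb1 UMI was found in 56.8, 53.6 and 55.5% of cells in mice 1 to 3, an Areg UMI in 40.8, 40.5 and 37.8% and an Il10 UMI in 17.6, 17.7 and 18.6%. The 3 mice lay within a few points of each other for each gene. Il22 was found in 1.90 ± 0.219% (SD, n = 3 mice), 60 cells in all, Il6 in 0.615 ± 0.382%, 21 cells, and Il17a in 1 cell. In reporter cells the shares were 67.4, 68.5 and 62.4% for Tgfb1, 43.7, 39.7 and 44.8% for Areg and 19.9, 21.7 and 20.05% for Il10. Il6 was found in 4.11, 5.42 and 2.11% of reporter cells (134 cells), with mouse 2 highest and mouse 3 lowest. Il22 was found in 35 reporter cells and Il17a in 26. These genes were not confined to the kept cells. Of 3061 reporter barcodes that failed the cell filters, 57 held Il6, 18 Il22 and 14 Il17a. Of 417 assigned reporter cells outside the T-marked gate, 15 held Il6, 2 Il22 and 4 Il17a. B-like cells, which should lack T cell cytokines, had an Il10 UMI in 4.36 ± 1.89% and an Areg UMI in 2.35 ± 0.844% in the Tfh sort, far under the T-marked shares. Their Tgfb1 share, 47.3 ± 10.5%, was near that of T-marked cells, and B cells are known to express Tgfb1. None of 214 B-like cells held Il6, which allows a share of up to 1.40%, and in the reporter sort 0 of 44 held Il10, Il6, Il17a or Il22, which allows up to 6.82%. Il6 shares over all T-marked cells lie under these limits in both sorts, so at this depth only the higher shares of single classes below are set apart from free RNA. Il22 was found in 1 of the 214 B-like cells. Of the 44 B-like cells of the reporter sort, 3 held Areg and 22 held Tgfb1.

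Transcripts of Il10, Areg and Il17a were concentrated in few reporter cells. Of 8059 Il10 UMIs in the reporter sort, 86.2% lay in the 207 cells with 10 or more, up to 162 in a cell. For Areg, 82.3% of 19279 UMIs lay in 451 such cells, and for Il17a 88.8% of 295 in 6 cells. Tgfb1 was spread thinly, with 24.3% of its UMIs in such cells. The shallower Tfh sort held less extreme cells, with 36.5% of Il10 and 38.4% of Areg UMIs in cells with 10 or more and no such cell for Tgfb1. Its Il22 was the exception, with 64.1% of 357 UMIs in 9 cells. These Il22 UMIs came from all mice (81, 158 and 118 UMIs), whereas reporter Il17a UMIs were uneven (207, 83 and 5).

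The first comparison asked which members rise with Il13, the effector cytokine of Th2 cells, by setting cells with 2 or more Il13 UMIs (Il13-high) against cells with none. Il6, Areg, Il10 and Tgfb1 were higher in Il13-high cells of both sorts, Il6 by far the most. Il13-high cells numbered 629 of 3572 in the reporter sort and 71 of 3102 in the Tfh sort (27, 33 and 11 per mouse). They were deeper, with a median of 13015 against 6165 UMIs in the reporter sort and 4152 against 2749 in the Tfh sort. Shares of cells are therefore given also after thinning every cell to 2000 UMIs (316 reporter and 588 Tfh-sort cells under that depth left out), and tests use UMIs summed per mouse and scaled to the sum's total (CPM, with TMM factors).

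**Figure D1:**
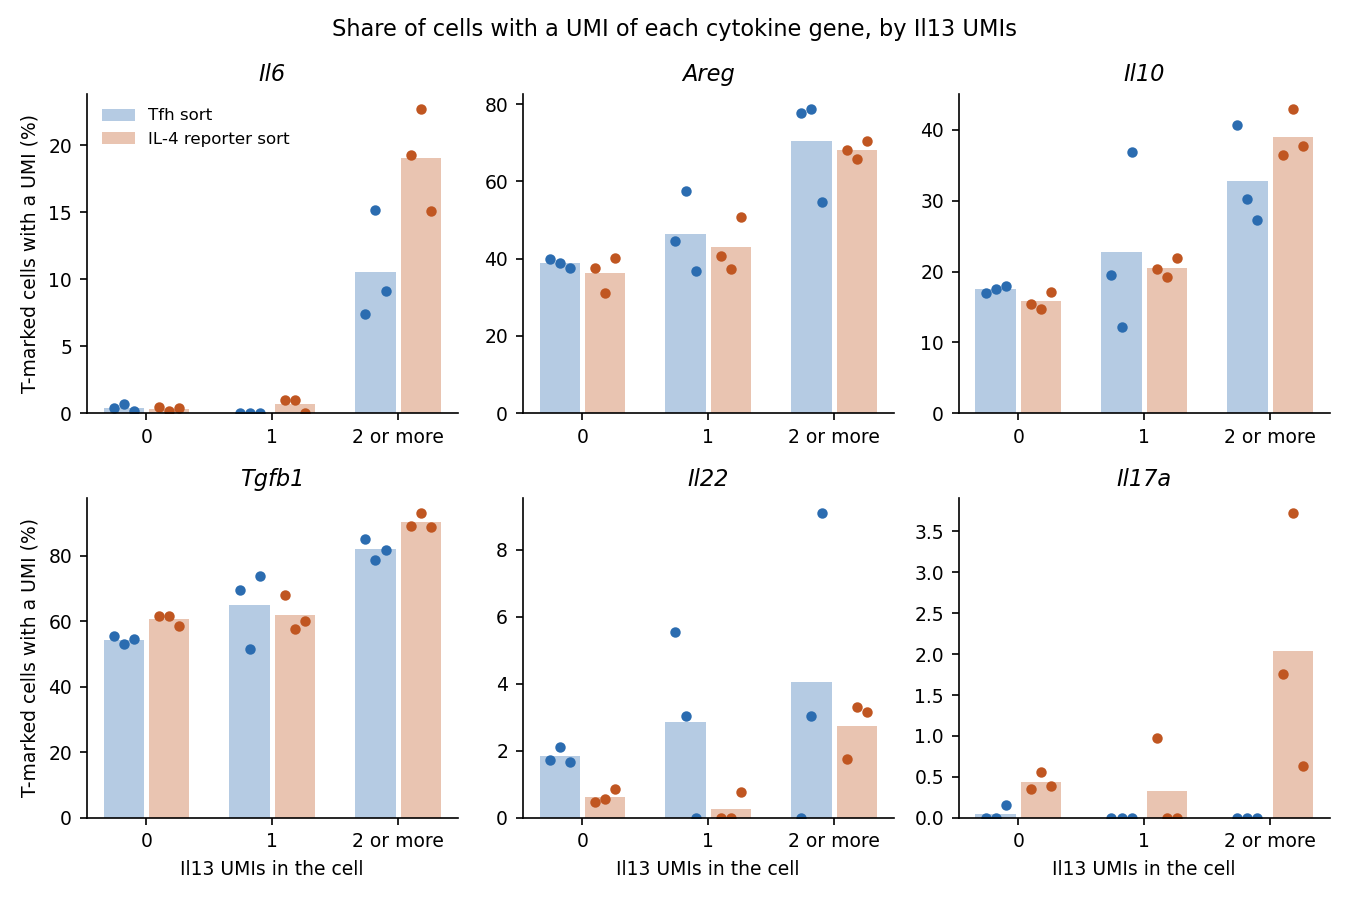
Percent of T-marked cells with a UMI of each member (y axis) in cells with 0, 1 and 2 or more Il13 UMIs (x axis), in the Tfh sort (blue) and IL-4 reporter sort (orange). Bars are means over 3 mice and points are mice. Il6 was near 0 except in Il13-high cells, reaching 19.3, 22.7 and 15.1% in the reporter sort, and Areg, Il10 and Tgfb1 rose from higher starting shares.

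Il6 was almost confined to Il13-high cells of the reporter sort. An Il6 UMI was found in 19.3, 22.7 and 15.1% of them in mice 1 to 3, against 0.464, 0.141 and 0.385% of cells without Il13, and in 2 of 330 cells with exactly 1 Il13 UMI. No mouse's Il13-high share came near any share of the other classes. Summed Il6 was 47.6, 45.9 and 21.4 CPM against 0.670, 0.199 and 0.507 CPM, a log2 difference of 6.18 ± 0.26 (SE) (edgeR quasi-likelihood test, adjusted p = 6.64e-10, 3 of 3 mice). It rested on 493 UMIs against 9. The share climbed on within the class, to 100 of 301 cells (33.2%) with 20 or more Il13 UMIs. Thinned shares were 0.115% without Il13 and 5.60% in Il13-high cells, and at matched depth the log2 difference was 7.80.

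The Tfh sort gave the same direction for Il6 from far fewer cells. The gene was found in 7.41, 15.2 and 9.09% of Il13-high cells (8 of 71) against 0.364, 0.673 and 0.152% of cells without Il13 (13 of 2943). None of 88 cells with 1 Il13 UMI had it, which allows up to 3.41%. Summed levels were 64, 153 and 14.2 CPM against 1.03, 3.46 and 5.37 CPM and did not overlap, a log2 difference of 4.88 ± 0.50 (SE) (edgeR adjusted p = 1.16e-19). Mouse 3's Il13-high value is 1 UMI in 11 cells. Of cells with 20 or more Il13 UMIs, 6 of 23 held Il6 and 21 of 23 held Areg.

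Areg, already frequent without Il13, rose further with it. Reporter Il13-high cells held an Areg UMI in 68.0, 65.7 and 70.4% of cells, against 37.6, 31.2 and 40.2% without Il13, with 40.8, 37.4 and 50.8% between them at 1 Il13 UMI. Summed Areg was 1294, 902 and 825 CPM against 312, 298 and 289.9 CPM, without overlap, a log2 difference of 1.72 ± 0.10 (SE) (edgeR adjusted p = 7.77e-09, 3 of 3 mice). The thinned shares were 48.3% against 23.7%. In Tfh-sort mice Areg was 1773, 1431 and 156 CPM in Il13-high cells against 432, 459 and 412 CPM, so mice 1 and 2 were far higher and mouse 3 lower, although its share of cells was higher (77.8, 78.8 and 54.5% against 39.8, 39.0 and 37.6% in mice 1 to 3). That log2 difference of 1.37 ± 0.13 (SE) passed edgeR's test (adjusted p = 4.37e-24) with 2 of 3 mice higher, but not its robust form (adjusted p = 0.695), and was 0.82 without mouse 1. At matched depth the Areg differences were 1.98 in the Tfh sort and 2.53 in the reporter sort.

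Il10 followed Areg at a lower level. In the reporter sort its share went from 15.4, 14.8 and 17.1% without Il13 through 20.4, 19.2 and 21.9% with 1 UMI to 36.4, 43.0 and 37.7% in Il13-high cells, an order that every mouse showed. Sums were 501, 448 and 228 CPM against 138, 158 and 122 CPM, without overlap but lowest in mouse 3, a log2 difference of 1.43 ± 0.13 (SE) (edgeR adjusted p = 6.62e-07). In the Tfh sort, sums were 467, 301 and 42.6 CPM against 144, 129 and 119.8 CPM, again higher in mice 1 and 2 and lower in mouse 3. The log2 difference was 1.18 ± 0.17 (SE) (edgeR adjusted p = 1.62e-09, 2 of 3 mice) and did not pass without mouse 1 (0.69, adjusted p = 0.127). At matched depth the Il10 differences were larger, 2.75 in the Tfh sort and 2.41 in the reporter sort (edgeR adjusted p = 3.15e-06 and 9.23e-10). Tgfb1 differed least, by 0.47 ± 0.07 (SE) in the reporter sort (288, 279 and 274 against 204, 210.1 and 192 CPM, edgeR adjusted p = 8.45e-05). Its Tfh-sort values, 435, 382 and 355 against 289, 274 and 283 CPM, gave 0.49 ± 0.15 (SE) (edgeR adjusted p = 0.0367), without overlap, and this call ended without mouse 1 or 2 (adjusted p = 0.513 and 0.593) and at matched depth (0.373).

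**Figure D2:**
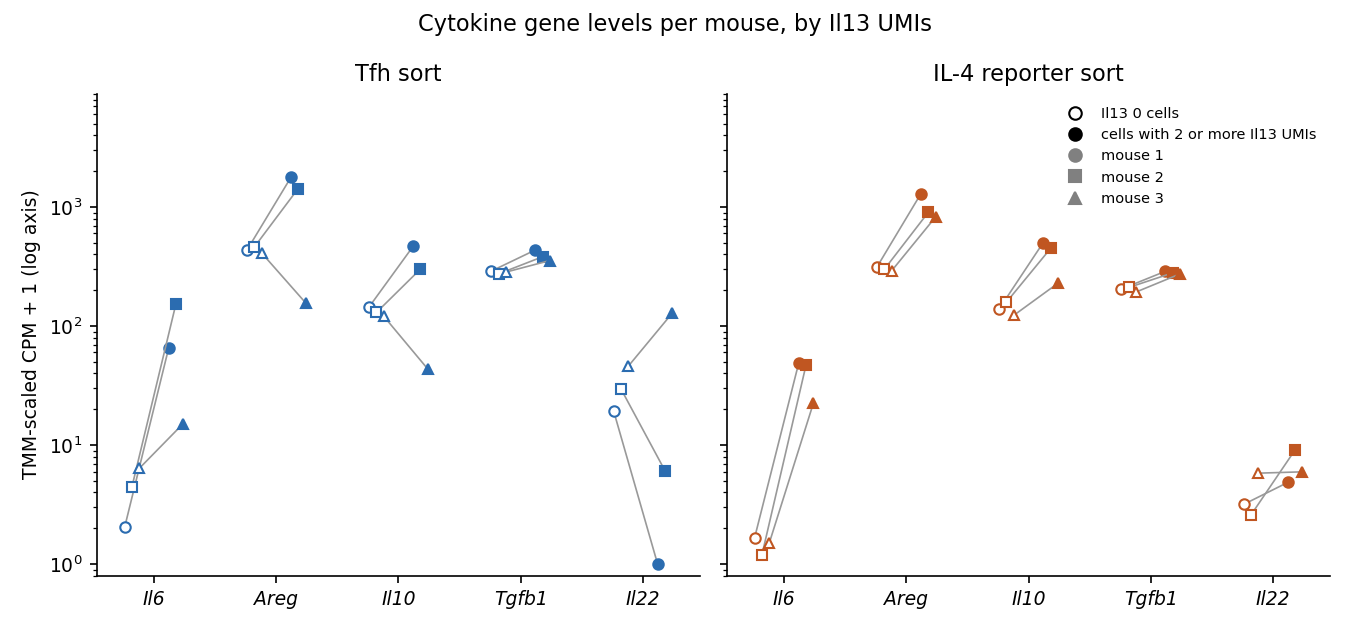
Summed level per mouse (TMM-scaled CPM plus 1, log axis) of 5 members in cells without Il13 (open points) and with 2 or more Il13 UMIs (filled points), lines joining the values of a mouse and shapes marking mice 1 to 3. Il6 rose in every mouse of both sorts, from 0.670, 0.199 and 0.507 to 47.6, 45.9 and 21.4 CPM in the reporter sort, while mouse 3 of the Tfh sort fell for Areg and Il10.

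The Th17-type members were less regular. Il22 in the Tfh sort was 0, 5.09 and 128 CPM in Il13-high cells against 18.3, 28.7 and 45.0 CPM, with 2 of 71 Il13-high cells and 55 of 2943 others carrying it, and the classes overlapped (log2 difference -0.20 ± 0.51 (SE), edgeR adjusted p = 0.949). It was called higher in the reporter sort, by 0.95 ± 0.36 (SE) (edgeR adjusted p = 0.0367), from 3.85, 8.10 and 4.96 against 2.18, 1.59 and 4.81 CPM, values that overlap. It was 1.62 without mouse 3, and the call ended without mouse 2 (0.34) and at matched depth (0.07). Il17a was left out of the test by the low-count filter, since few of its sums reached the minimum. It had 279 UMIs in Il13-high reporter cells (199, 79 and 1 in mice 1 to 3) and 15 in cells without Il13 (7, 4 and 4), so mice 1 and 2 held nearly all of it. Fitted without that filter, it was higher by 4.65 ± 0.28 (SE) (edgeR adjusted p = 1.03e-57), with 1 and 4 UMIs behind mouse 3. As 88.8% of reporter Il17a UMIs lay in 6 cells, that p-value does not show agreement among the 3 mice. Il17a was found in 13 of 301 cells with 20 or more Il13 UMIs (4.32%) and 11 of 2613 without Il13 (0.421%), classes that differ in depth (medians 17730 and 6165 UMIs). Its neighbour gene of the same family, Il17f, was higher by 1.93 (edgeR adjusted p = 0.00838). In all, 4 of 5 members tested in the Tfh sort passed, where 3.86% of 7333 genes did, and 5 of 5 in the reporter sort, where 58.4% of 9936 genes did, so the reporter count says little by itself. Nor is the Tfh-sort count separate evidence. Earlier results of these data, known when the members were chosen, already showed Il6, Il10 and Areg higher in Il13-bearing cells of that sort. Set against all genes, sums that do not overlap occurred for 25.8% of genes (Tfh sort) and 63% (reporter sort).

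**Figure D3:**
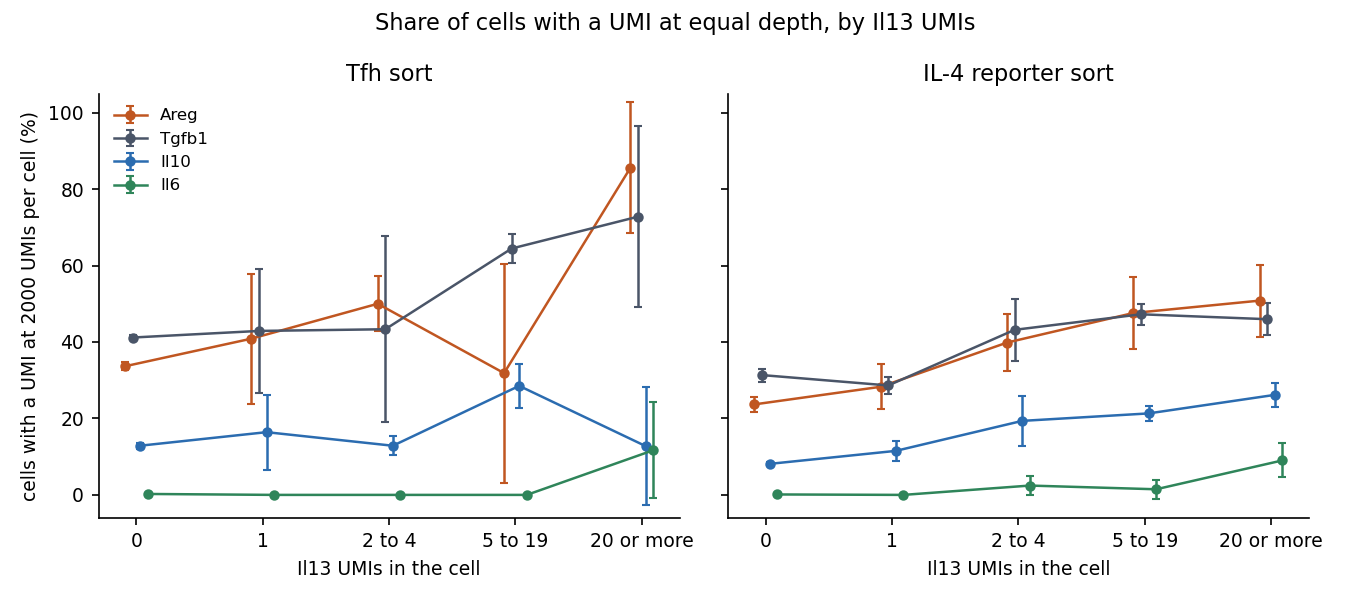
Percent of cells, thinned to 2000 UMIs, with a UMI of Areg, Tgfb1, Il10 or Il6 (y axis) by Il13 UMIs of the cell before thinning (0, 1, 2 to 4, 5 to 19, 20 or more; x axis), mean ± SD over 3 mice in each sort. In reporter cells Il10 went through 8.11, 11.5, 19.4, 21.3 and 26.2% and Areg through 23.7, 28.3, 39.8, 47.6 and 50.8%.

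At equal depth the shares of the members ran as follows over the Il13 levels of reporter cells, and no test was run on their order. Il10 shares over the 5 bins of Il13 UMIs were 8.11, 11.5, 19.4, 21.3 and 26.2% and Areg shares 23.7, 28.3, 39.8, 47.6 and 50.8%, both already higher at 2 to 4 UMIs. Tgfb1 shares were 31.3, 28.6, 43.2, 47.2 and 46.0%, level from 2 to 4 UMIs on. Il6 shares were 0.115, 0, 2.44, 1.47 and 9.02%, with most of the rise in percentage points at 20 or more. They rest on 3, 0, 3, 3 and 31 cells with Il6. None of the 5 members tested had an Il13 difference that differed between the sorts past the test (reporter minus Tfh sort, edgeR interaction, 2 of 5 at an unadjusted p under 0.05, none by DESeq2, 6.5% of 9994 genes passing). By edgeR, the gaps in log2 difference were 1.25 ± 0.60 for Il6 (adjusted p = 0.249), 0.32 ± 0.17 for Areg (0.316), 0.25 ± 0.20 for Il10 (0.572) and 0.00 ± 0.17 for Tgfb1 (1). These gaps carry standard errors wide enough for sizeable differences, so equality is not shown. At matched depth the sign turned for Il6 (-2.29 ± 4.75), Il10 (-0.37 ± 0.42) and Il22 (-3.20 ± 1.71, against 1.17 ± 0.59 with all cells), none past the test, so no direction is given for these 3.

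Partner genes of the members also differed with Il13. Furin, the protease that processes the TGF-β1 precursor, was higher in Il13-high cells by 2.07 ± 0.14 in the Tfh sort and 1.54 ± 0.11 in the reporter sort (edgeR adjusted p = 3.02e-48 and 8.16e-08). Itgav and Itgb8, subunits of a TGF-β-activating integrin, and Tgfb3 were lower in reporter Il13-high cells, so 3 of 6 tested genes of the TGF-β group rose and 3 fell (median log2 -0.01, against -0.04 over all tested genes). Of receptor genes for the 6 factors, Il6ra and the gp130 gene Il6st were lower in both sorts, with log2 differences of -1.33 and -1.86 for the Tfh sort and of -2.55 and -3.51 for reporter cells (2 of 7 and 5 of 9 tested receptor genes lower). The only receptor gene that rose in the reporter sort was Il10ra (1.38), which encodes the IL-10-binding chain. Of regulators known to act on Il10, Il17a or Il22, Bhlhe40, a repressor of Il10, was higher in both sorts (1.47 and 0.64), whereas Prdm1, the Blimp-1 gene, was higher (1.15) and Maf lower (-0.54) in the reporter sort. There 4 of 11 tested regulators rose and 5 fell (median -0.04). The type 2 genes themselves were higher, 8 of 9 tested in the Tfh sort and 10 of 10 in the reporter sort, Areg among them, and Tfh genes were lower, 4 and 9 of 10. Markers of ILC2, innate lymphocytes with the same cytokines, moved with the class, their summed level being 40.3 to 92.5 CPM in Il13-high reporter cells against 9.95 to 14.4 CPM. In the Tfh sort it was 0 to 83.4 against 4.32 to 6.84 CPM, with overlap. Their part in the results was not tested, and Il1rl1 and Klrg1 of that list are also known in Th2 cells.

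Il4, the other cytokine of the type 2 set, separated Il6 from Il10. Cells were split by Il13 and Il4 UMIs together. Among reporter cells, Il6 was found in 0 of 178 cells with 2 or more Il4 UMIs but no Il13 (allowing up to 1.69%), in 44 of 263 Il13-high cells without Il4 (16.6 ± 1.61%), and in 52 of 186 cells high for both (26.9 ± 5.35%). Il10 was found in 14.2 ± 0.485% of cells with neither, in 39.0, 21.2 and 34.1% of Il4-high cells without Il13 in mice 1 to 3, and in 35.5 ± 3.30% of Il13-high cells without Il4. The Il4-high shares lay above those of cells with neither in every mouse, and stayed higher after thinning (17.5% against 6.78%). Areg shares ran 34.8% with neither, 45.4% with Il4 only, 63.6% with Il13 only and 73.4% with both. Tfh-sort cells high for Il4 without Il13 were common, and Il6 was found in 4 of 1035 of them against 8 of 66 cells high for both. Areg was found in 32.8 ± 2.65% of Tfh-sort cells with neither, 46.3 ± 1.23% with Il4 only and 71.2 ± 13.7% with both. Il4 UMIs are not comparable between the sorts, since the 4get allele carries an inserted cassette in Il4. No test was run on these shares.

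Gata3, the Th2 master regulator gene, and Cxcr5 sorted the members further, again as shares without a test. Of 134 reporter Il6 cells, 123 were among the 1287 cells with 2 or more Gata3 UMIs, 7 among 808 with 1 and 4 among 1477 with none. The mean Il10 share was 13.2, 17.8 and 30.4% at 0, 1 and 2 or more Gata3 UMIs, and that of Areg 34.6, 37.4 and 55.4%. These reporter counts and shares by Gata3 are unthinned, so depth was not taken out of them. In Tfh-sort cells the Il10 share by Gata3 was 17.0, 17.9 and 25.4%, but 13.0, 13.3 and 13.7% after thinning, so no rise remained at equal depth. Cxcr5 ran the other way in the reporter sort, with Il10 in 22.2, 13.5 and 11.2% of cells at 0, 1 and 2 or more Cxcr5 UMIs (13.1, 5.35 and 3.10% thinned). Il6 there was found in 4.51, 0.620 and 1.06%, and Areg in 43.7, 38.9 and 35.7% (30.1, 23.6 and 19.1% thinned). Tgfb1 gave 66.7, 61.0 and 67.2%, with no steady order. Among Tfh-sort cells, all gated on surface CXCR5, the Il10 share was 18.0, 17.4 and 18.5% unthinned and 14.3, 11.7 and 7.68% thinned, so its order by Cxcr5 depended on depth.

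Foxp3, the lineage factor gene of regulatory T cells, marked a different set of member-bearing cells. A Foxp3 UMI was found in 74 Tfh-sort cells (36, 27 and 11 per mouse, median 5022 UMIs against 2768 in the others). Il10 was found in 25.0, 44.4 and 36.4% of these cells against 17.3, 17.1 and 18.3% of the rest, higher in each mouse. Summed Il10 was 306, 253 and 174 CPM against 157, 139 and 121 CPM, without overlap, a log2 difference of 0.86 ± 0.18 (SE) (edgeR adjusted p = 0.000145). The call ended without mouse 1 or mouse 2 (edgeR adjusted p = 0.175 and 0.0839), while at matched depth the difference was 1.51 (adjusted p = 0.000911). Il22 was absent, with 0 UMIs in the 74 cells against 357 elsewhere. By a floor of 3 counts over the group it was at least 5.34-fold lower (edgeR adjusted p = 4.65e-05). These UMIs were clumped, with 229 of the 357 in 9 cells and 60 carriers among all 3102 T-marked cells. Finding 0 of 74 cells allows a share of up to 4.05%, above that overall share. A lower share of Il22 carriers among Foxp3-bearing cells is therefore not shown. Areg was 529.8, 867 and 412 CPM against 496, 498 and 410.4 CPM, above the rest in 3 of 3 mice by 0.36 ± 0.14 (SE) without passing (edgeR adjusted p = 0.118), and passed at matched depth (1.03, 0.000672). Tgfb1 (-0.04 ± 0.16 (SE)) and Il6 (0.45 ± 0.93 (SE)) did not pass. In all, 2 of 5 tested members were called, where 4.5% of 7536 genes were. CD8 T cell markers summed to 14.5 to 18.5 CPM in Foxp3-bearing cells against 5.76 to 8.03 CPM, and their part in these results was not tested.

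The Foxp3-bearing cells had less Il13 and Il4. Their Il13 rested on 2 UMIs, a ratio of 0.0306 to the other cells (95% counting interval 0.00370 to 0.111), and Il4 was lower by a log2 difference of -1.94 ± 0.16 (SE) (edgeR adjusted p = 1.55e-30). Of 7 tested Treg genes 6 rose (median 1.44 against -0.05 over all genes), among them Il2ra (2.88), the IL-2 receptor α chain, and Ctla4 (1.15), an inhibitory receptor. Itgb8, which with Itgav activates latent TGF-β1, was higher by 2.11 ± 0.44 (edgeR adjusted p = 0.000166), and Itgav rose too (1.48), while Tgfb1 itself gave -0.04. Only 21 reporter cells held a Foxp3 UMI (9, 6 and 6 per mouse), too few for sums. Il10 was found in 10 of them, Areg in 13, Tgfb1 in 17, Il6 in 1, and Il22 and Il17a in none, which allows up to 14.3%.

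**Figure D4:**
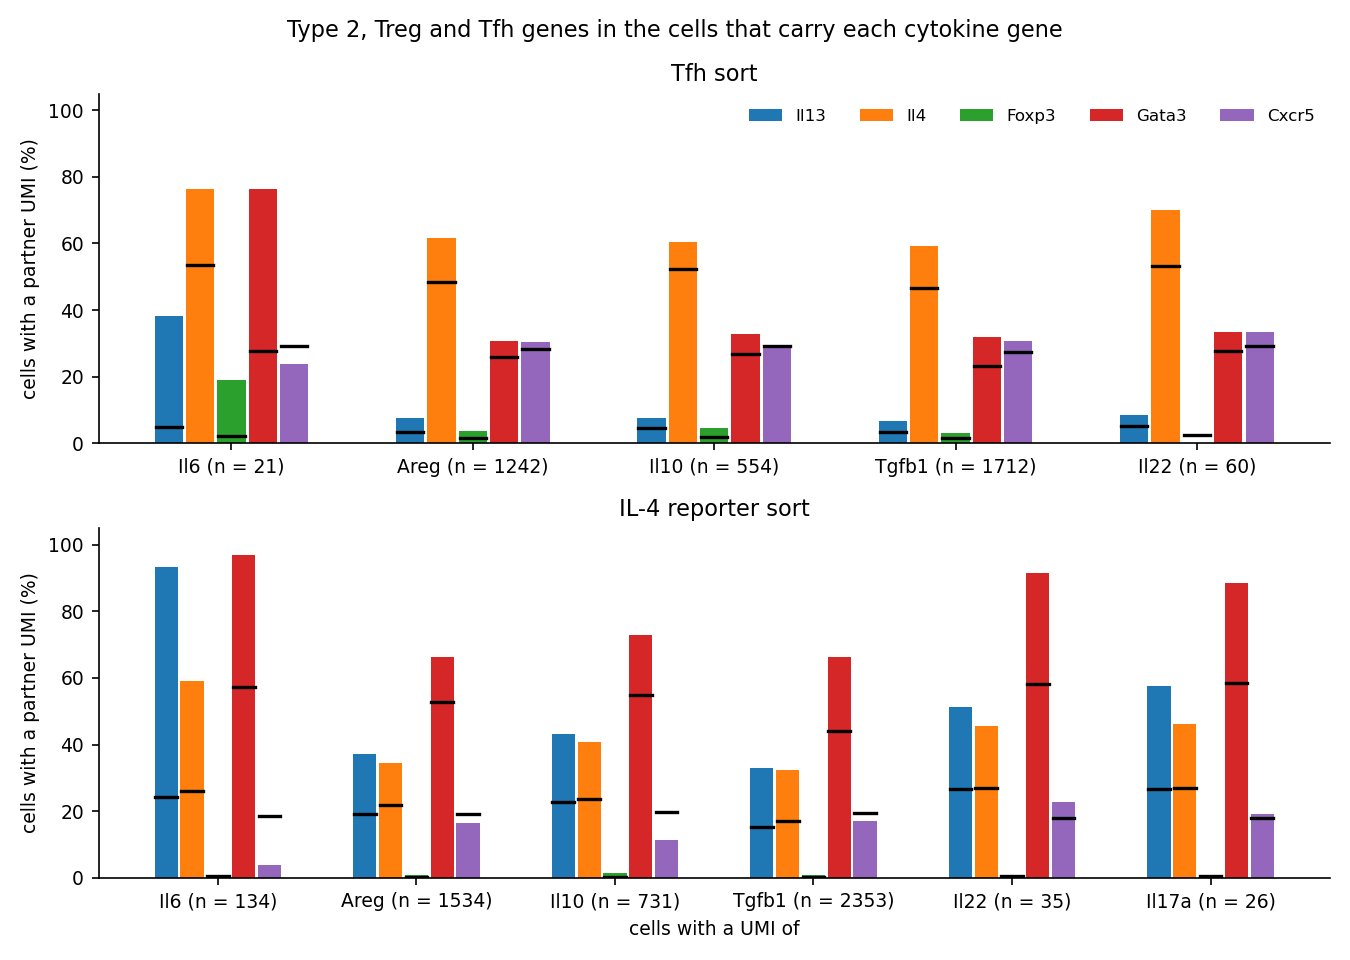
Percent of cells carrying each member (bars, pooled over mice, n cells on the axis) that also hold a UMI of Il13, Il4, Foxp3, Gata3 or Cxcr5, with the same percent in cells lacking the member as black lines, per sort. Il13 was found in 93.3% of reporter Il6 cells against 24.3% of the rest.

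Turned around, cells carrying a member were set against cells without it, to see what else they hold. Il13 values in these carriers repeat the co-occurrence of the Il13 comparison from the other side and are not separate evidence. The same holds where each member of a pair is tested by the other. Reporter cells with Il6 were Il13- and Gata3-bearing in nearly every case, and had low Tfh and Ifng transcripts. Il13 was found in 91.8, 98.2 and 85.7% of Il6 cells in mice 1 to 3, against 25.0, 28.6 and 20.2% of others, and cells with Il13 held 98.2% of all Il6 UMIs. Gata3 was found in 97.0% against 57.2%, Il5 in 26.9% against 2.18% and Cxcr5 in 3.73% against 18.5%. Il6 cells were deeper, at a median of 15586 UMIs against 6527.

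In sums, Il13 was 2907, 2344 and 1219 CPM in Il6 cells against 564, 572 and 219.5 CPM, a log2 difference of 2.29 ± 0.08 (SE) (edgeR adjusted p = 3.99e-10), and Gata3 455, 359 and 380.3 against 245, 236 and 208 CPM, 0.79 ± 0.08 (SE) (adjusted p = 4.64e-06). Cxcr5 was 3.97, 1.26 and 2.12 CPM against 32.6, 27.6 and 35.5 CPM (-3.77 ± 0.31 (SE), edgeR adjusted p = 8.38e-07). Ifng, the Th1 cytokine gene, was 0.994, 1.26 and 7.44 CPM against 45.1, 49.4 and 49.1 CPM (-4.07 ± 0.33 (SE), edgeR adjusted p = 7.92e-07). All 4 genes differed without overlap between the classes. Il5 was 101, 89.2 and 80.7 CPM against 35.4, 8.76 and 3.05 CPM, 2.85 ± 0.37 (SE) (edgeR adjusted p = 4.59e-05), a call that the robust fit did not make (0.142). Il4 did not pass (0.06 ± 0.13 (SE), edgeR adjusted p = 0.75), but it passed at matched depth (0.80, edgeR adjusted p = 0.0166). An Il4 UMI was found in 59.0% of Il6 cells against 26.0% of others, unthinned.

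Among the other members, Il6 cells had more Areg, 1293, 1174 and 514 CPM against 609, 483 and 464 CPM (0.87 ± 0.15 (SE), edgeR adjusted p = 0.000382, robust 0.193, matched depth 1.61 with 4.55e-09), and the value of mouse 3 lay among those of cells without Il6. Il10, 459, 355 and 43.6 CPM against 253, 291 and 164 CPM, was higher in mice 1 and 2 and lower in mouse 3, did not pass (0.09 ± 0.27 (SE), edgeR adjusted p = 0.82), and passed at matched depth (1.18, 3.45e-05) and without mouse 3 (0.57). Il17a was 92.4, 41.5 and 0 CPM against 12.4, 1.82 and 0.423 CPM (3.33 ± 0.32 (SE), edgeR adjusted p = 3.44e-06), with 2 of 3 mice higher, and absent from Il6 cells of mouse 3. Tgfb1 (0.17 ± 0.07 (SE)) and Il22 (0.81 ± 0.50 (SE)) did not pass. In all, 2 of 5 tested members were called, where 37% of 10033 genes were.

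The largest rises in Il6 cells, and hence the genes most like Il6 by this measure, were Calca (5.19), the gene of the neuropeptide CGRP, Mt2 (3.02) and Mt1 (2.69), metallothioneins that bind zinc, the chemokine receptor gene Ccr1 (2.92), the transcription factor gene Hlf (2.92) and the MHC class II genes H2-Aa (2.73), H2-Ab1 (2.68) and H2-Eb1 (2.62). H2-Aa was 54.6, 131 and 113 CPM against 16.6, 15.3 and 12.8 CPM and Mt1 206, 160.2 and 155 against 29.5, 33.6 and 18.0 CPM, each without overlap. Calca was uneven, at 91.4, 11.9 and 1.06 CPM in Il6 cells of mice 1 to 3. The largest falls were H2-Q2, an MHC class I gene (ratio 0.0306, 95% counting interval 0.00630 to 0.0898), Ifng, Nsg2 (-4.02), the phosphodiesterase gene Pde3b (-3.83) and Cxcr5. Of 11 type 2 genes tested 9 rose (median 1.00), and of 10 Tfh genes 9 fell (median -2.16, against -0.05 over all genes). Il6ra and Il6st were lower in the Il6 cells (-3.56 and -3.58), while Osm and Lif, which encode cytokines of the same family, were higher (1.37 and 0.42). Of 15 acute stimulation genes such as Fos and Egr1, 12 were lower. B cell markers summed to 1.90 to 3.96 CPM in Il6 cells against 2.97 to 4.85 CPM and macrophage markers to 0 to 0.633 against 2.61 to 2.86 CPM. The T-marked gate leaves under 2 UMIs of each of these lists in a cell. As Il6 cells were also deeper, these sums cannot show whether such cells played a part. ILC2 markers were raised, at 64.1 to 99.98 against 18.1 to 33.7 CPM, with Il1rl1 in 66 of 134 Il6 cells, and mast cell or basophil markers at 1.09 to 4.95 against 0.170 to 0.212 CPM, from Mcpt8 in 8 cells with Cpa3, Fcer1a and Ms4a2 at 0. The part of these markers in the result was not tested. Tfh-sort Il6 cells, 21 in all, were too few for sums, and 8 held Il13, 4 held Foxp3 and 76.2% held Gata3, against 27.6% of others.

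Il10 cells were of a more mixed kind. In the reporter sort Il13 was found in 43.1% of Il10 cells against 22.7% of others, Gata3 in 72.8% against 55.0%, Cxcr5 in 11.2% against 19.6% and Foxp3 in 1.37%. In the Tfh sort only 7.58% of Il10 cells held Il13 (others 4.59%), 4.51% held Foxp3 (others 1.92%), and the unthinned Cxcr5 shares were alike (29.1% and 29.2%). In sums, which are scaled to depth, Tfh-sort Cxcr5 was lower in Il10 cells by the robust fit (log2 difference -0.45, edgeR adjusted p = 0.0202). At matched depth it did not pass (-0.33, edgeR adjusted p = 0.340). Median depths were 8352 against 6357 UMIs in the reporter sort and 3466 against 2674 in the Tfh sort. ILC2 markers were raised in Il10 cells of both sorts, at 15.2 to 18.3 against 5.31 to 5.70 CPM in the Tfh sort and 30.4 to 69.9 against 17.9 to 29.8 CPM in the reporter sort, and their part in the results was not tested.

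Areg was the member that rose with Il10 in both sorts. In Tfh-sort Il10 cells it was 695, 779.5 and 488 CPM against 409.5, 407 and 367 CPM, without overlap, a log2 difference of 0.73 ± 0.07 (SE) (edgeR adjusted p = 4.32e-06). In reporter Il10 cells it was 1215, 923 and 705 CPM against 482, 389 and 365 CPM, 1.18 ± 0.07 (SE) (edgeR adjusted p = 8.23e-10). Without the cells that held an Il13 UMI this was 0.55 (edgeR adjusted p = 1.49e-05), still past the test. Il13 was 1367, 1364 and 472 CPM in reporter Il10 cells against 587, 524 and 217 CPM (1.24 ± 0.07 (SE), edgeR adjusted p = 2.27e-10), higher in each mouse. Its Tfh-sort values, 337, 318 and 34.3 against 91.3, 115 and 43.8 CPM, were higher in mice 1 and 2 only (1.47 ± 0.16 (SE), edgeR adjusted p = 1.12e-05, robust 0.437). Cxcr5 was lower in Il10 cells of the reporter sort, 13.1, 6.82 and 17.1 against 35.3, 33.2 and 38.8 CPM (-1.56 ± 0.17 (SE), edgeR adjusted p = 1.8e-06). Tgfb1 differed by 0.22 ± 0.07 (SE) in the reporter sort (edgeR adjusted p = 0.036, 0.11 at matched depth, 0.417 without mouse 3) and 0.03 ± 0.07 (SE) in the Tfh sort (adjusted p = 0.925). Reporter Il10 cells also had more Il6 (1.06 ± 0.26 (SE), edgeR adjusted p = 0.00562, 2 of 3 mice, robust 0.298, 0.52 without mouse 2) and Il17a (1.99 ± 0.34 (SE), adjusted p = 0.000333, robust 0.175, 1.23 without mouse 2). Of members tested, 1 of 4 was called in the Tfh sort, where 1.28% of 7730 genes were, and 4 of 5 in the reporter sort, where 22.5% of 9997 genes were.

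The genes that rose most with Il10 differed by sort, with Hdc, which makes histamine, in both (log2 1.89 and 1.84). Tfh-sort Il10 cells had more Gbp3 (1.69), an interferon-induced GTPase gene, Srxn1 (1.42), an antioxidant gene, Il2ra (1.40), Mt1 (1.15), Lgals3 (1.06), the galectin-3 gene, Capg (1.01), Ccr8 (0.98), Ccl4 (0.94) and Plek (0.91). They had less Id3 (-1.36), an inhibitor of E proteins, Xcl1 (-1.27), a chemokine gene, Abtb2 (-0.98), Las1l (-0.73) and Toporsos (-0.71). Of 8 Treg genes tested 5 rose, Il2ra, Ctla4, Tnfrsf9, Tnfrsf18 and Capg (list median 0.63 against 0.00 over all genes), while Foxp3 itself did not pass (1.18 ± 0.35 (SE), edgeR adjusted p = 0.125). Reporter Il10 cells had more Ccl3 (3.26) and Cxcl2 (1.94), chemokine genes, Gzmb (2.44) and Nkg7 (1.88), cytotoxic granule genes, Neb (2.54), the glycosyltransferase gene Gcnt1 (2.21), Akr1c18 (1.83), Ier3 (1.79) and Prdm1 (1.73). Prdm1, whose product promotes Il10 in T cells, was 28.9, 30.0 and 25.2 CPM in Il10 cells against 9.41, 10.2 and 6.06 CPM, without overlap (edgeR adjusted p = 1.61e-07). Of 11 regulators tested there 6 rose (median 0.26 against 0.00), including Maf (0.26), an activator of Il10, and Bhlhe40 (0.51), a repressor. Il10ra, the receptor for the product, was also higher (0.46). Falls were led by Nsg2 (-1.76), Id3 (-1.68), Cd160 (-1.59), Fam101b (-1.57) and Cxcr5.

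Areg cells held more Il13 and Il5, more of the chemokine Ccl1, and more Il10. As Areg and Il10 cells overlap, the Il10 values below and the Areg values above are the same co-detection seen from both sides and not separate evidence. ILC2 markers were raised here too, at 11.1 to 14.7 against 3.07 to 5.06 CPM in the Tfh sort and 26.2 to 54.8 against 14.9 to 22.3 CPM in the reporter sort, with their part again not tested. Il10 was 191, 191 and 141 CPM in Areg cells of the Tfh sort against 130.3, 88.9 and 100.35 CPM, without overlap (0.74 ± 0.10 (SE), edgeR adjusted p = 0.000273), and 366, 433 and 180.3 against 157, 154 and 118 CPM in the reporter sort (1.13 ± 0.10 (SE), adjusted p = 3.17e-08, robust 0.0914). Il6 in the Tfh sort was nearly limited to Areg cells, with 68 of 72 UMIs, 6.92, 19.1 and 13.1 CPM against 0, 1.67 and 0 CPM (4.24 ± 0.52 (SE), edgeR adjusted p = 4.14e-05). Without mouse 2, which held all 4 Il6 UMIs outside Areg cells, the fitted value was 7.05. Reporter Il6 was 23.9, 33.7 and 7.07 CPM against 9.37, 8.94 and 6.19 CPM (1.35 ± 0.20 (SE), edgeR adjusted p = 2.95e-05), higher in each mouse, with the smallest gap in mouse 3. Il22 in Tfh-sort Areg cells was 19.3, 56.8 and 76.9 CPM against 18.6, 16.3 and 22.7 CPM (1.33 ± 0.22 (SE), edgeR adjusted p = 0.00147). Each of the 3 mice was higher, but the call did not pass in the robust fit (0.154) or without mouse 3 (0.0822). Tgfb1 was slightly higher in both sorts, 329, 299.9 and 307 against 254, 250.4 and 261 CPM in the Tfh sort (0.29 ± 0.07 (SE), edgeR adjusted p = 0.0208) and 257, 264 and 239 against 212, 211 and 189 CPM in the reporter sort (0.32 ± 0.05 (SE), adjusted p = 0.000123). The Tfh-sort call ended without mouse 1 (edgeR adjusted p = 0.211) or mouse 2 (0.102).

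Reporter Il17a rested on mouse 1 in this comparison, with 1.59 ± 0.59 (SE) in all mice (edgeR adjusted p = 0.0476, 1 of 3 higher) and -1.04 without mouse 1, the opposite direction. All 4 tested members were called in the Tfh sort, where 1.57% of 8306 genes were, and 4 of 5 in the reporter sort, where 29.5% of 10016 were. Ccl1, which encodes a ligand of CCR8, was 629.8, 504 and 313 CPM in Tfh-sort Areg cells against 103, 168 and 102 CPM (log2 1.96) and 1175, 1147 and 754 against 427, 436 and 288 CPM in the reporter sort (1.42), without overlap in either. Other large rises in the Tfh sort were Il5 (5.33), Il13 (2.62, robust adjusted p from edgeR 0.39), Il3 (1.74), a growth factor for basophils and mast cells, Akr1c18 (1.35), Zeb2 (1.21), Srxn1 (1.2), Hilpda (1.10) and Mt1 (0.95). In the reporter sort they were Cxcl2 (3.02), Hdc (2.13), Ltb4r1 (1.62), a leukotriene receptor gene, Gzmb (1.59), Ier3 (1.56), Nkg7 (1.52), Il5 (1.47, robust 0.231), Il13 (1.44) and Il1rl1 (1.37), the IL-33 receptor gene. Ccl5 and Id3 were among the largest falls in both sorts, Ccl5 by -1.70 and -2.51 and Id3 by -0.98 and -1.67. Xcl1 (-2.56), Ccl4 (-1.34) and Nkg7 (-1.15) fell in the Tfh sort, so Nkg7 moved in opposite directions in the sorts, a difference that was not tested. Art2b (-1.51), Pde3b (-1.40) and Fam101b (-1.39) fell in the reporter sort. Acute stimulation genes rose with Areg, 7 of 15 in the Tfh sort and 8 of 15 in the reporter sort (medians 0.17 and 0.14, against -0.01 and -0.02 over all genes), with Nr4a1, Nr4a2 and Nr4a3, targets of receptor signalling, called in both.

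Tgfb1 cells had more Il13 and Il5, and in the reporter sort more transcripts of cell cycle genes. Ccnb1, the cyclin B1 gene, was 72.5, 102 and 109 CPM in reporter Tgfb1 cells against 6.82, 9.84 and 15.5 CPM (log2 3.10, edgeR adjusted p = 5.72e-13), and Hist1h2ap (2.98), Ccna2 (2.85), Mki67 (2.83), Rrm2 (2.81), Rad51ap1 (2.86), Esco2 (2.84), Ube2c (2.82) and Bub1 (2.82), genes of DNA replication and mitosis, rose with it. In the Tfh sort Hist1h1b (1.88), Chaf1a (1.59), E2f1 (1.48), Nuf2 (1.47) and Hist1h2ap (1.45) rose, beside Il3 (3.37), Il5 (2.73), Ccl1 (2.24), Il13 (1.56) and Lgals3 (1.44). The Il13 value was 1.01 without mouse 1 and 2.63 without mouse 2, and Il5 was 4.09 without mouse 2. The falls there were MHC class II genes, H2-Aa (-1.53), H2-Eb1 (-1.34), H2-Ab1 (-1.21) and Cd74 (-1.17), with the interferon-induced Ifit1 (-1.34), and in the reporter sort Apoe (-2.59), Art2b (-2.0), Sostdc1 (-1.79), Fam101b (-1.71) and Pik3ip1 (-1.54). Depth moved with these classes, at medians of 7683 against 5106 UMIs in the reporter sort and 3219.5 against 2432 in the Tfh sort. At matched depth the counts of called genes dropped from 4566 to 250 and from 1271 to 71. The cell cycle values above are those without depth matching. Il13 was higher in reporter Tgfb1 cells by 2.79 ± 0.10 (SE) (edgeR adjusted p = 3.07e-14), and by 1.94 at matched depth (adjusted p = 1.09e-06). Il5 was higher there by 4.12 ± 0.28 (SE) without depth matching (edgeR adjusted p = 2.91e-10) and was not tested at matched depth. Areg was higher in reporter Tgfb1 cells, 772, 643 and 505 CPM against 322, 311 and 332 CPM (0.97 ± 0.09 (SE), edgeR adjusted p = 1.73e-08), as was Il10 (0.65 ± 0.07 (SE), adjusted p = 2.98e-07). All 5 members tested there were called, Il17a in 2 of 3 mice with robust adjusted p 0.0512, where 45.4% of 10050 genes were. Il6 (2.77 ± 0.40 (SE)) depended on mouse 1 (5.95 without it), and Il22 (1.70 ± 0.48 (SE)) on mouse 3 (2.94). In the Tfh sort 1 of 3 was called, Areg (0.21 ± 0.05 (SE), 2 of 3 mice), where 16.1% of 7898 genes were, and that call ended without mouse 1 or 2 (0.14 and 0.05) and was 0.38 without mouse 3.

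Il22 cells were few in both sorts and are described for each in turn. The 60 Tfh-sort cells with Il22 held Il4 in 70.0% (others 53.4%), Il13 in 8.33% (others 5.06%), Cxcr5 in 33.3% (others 29.1%) and Foxp3 in 0. The mean Il22 share went from 1.21, 1.76 and 2.79% at 0, 1 and 2 or more Il4 UMIs. S100a4, which encodes a calcium-binding protein of memory and effector T cells, was 173, 133 and 170.2 CPM in these cells against 48.4, 43.7 and 63.0 CPM, without overlap (log2 1.65 ± 0.31 (SE), edgeR adjusted p = 0.000188). S100a6 (0.84) and Stmn1 (0.65) rose too. Ccl5 had 0 UMIs against 601, at least 4.95-fold lower (edgeR adjusted p = 0.000803), and Vps37b (-2.37), Ccl4 (-1.64), Ahcyl2 (-0.91) and Ighm (-0.85) fell. Areg was 645, 795 and 624 CPM against 487, 499 and 401 CPM, higher in 3 of 3 mice just short of the test (0.57 ± 0.15 (SE), edgeR adjusted p = 0.0559), and Il10 did not pass (-0.58 ± 0.29 (SE)). None of 3 tested members was called, where 0.161% of 7449 genes were. At an unadjusted p under 0.05, edgeR had 2 of the 3 (Areg higher, Il10 lower), and DESeq2 called none.

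The 35 reporter cells with Il22 held Gata3 in 91.4% against 58.3% of others and Il13 in 51.4% against 26.6%, at a median depth of 19642 UMIs against 6608. Sums could be formed for mice 2 and 3 only (12 and 15 cells). Their Il10 was 72.2 and 17.0 CPM against 315 and 163 CPM (log2 -2.51 ± 0.23 (SE), edgeR adjusted p = 1.33e-23), although the share of cells with any Il10 UMI was higher, 33.3% against 20.4%. Areg was 47.3 and 452 against 616 and 476 CPM (-1.25 ± 0.17 (SE), robust adjusted p from edgeR 0.805). Of 5 tested members these 2 were called, where 11.7% of 10171 genes were, and 16 genes were called at matched depth. Reporter Il17a cells, 26 in all, held Gata3 in 88.5% and Il13 in 57.7%, and cells with Il13 held 94.9% of Il17a UMIs. Il6 was found in 8 of the 26 and Il10 in 14.

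**Figure D5:**
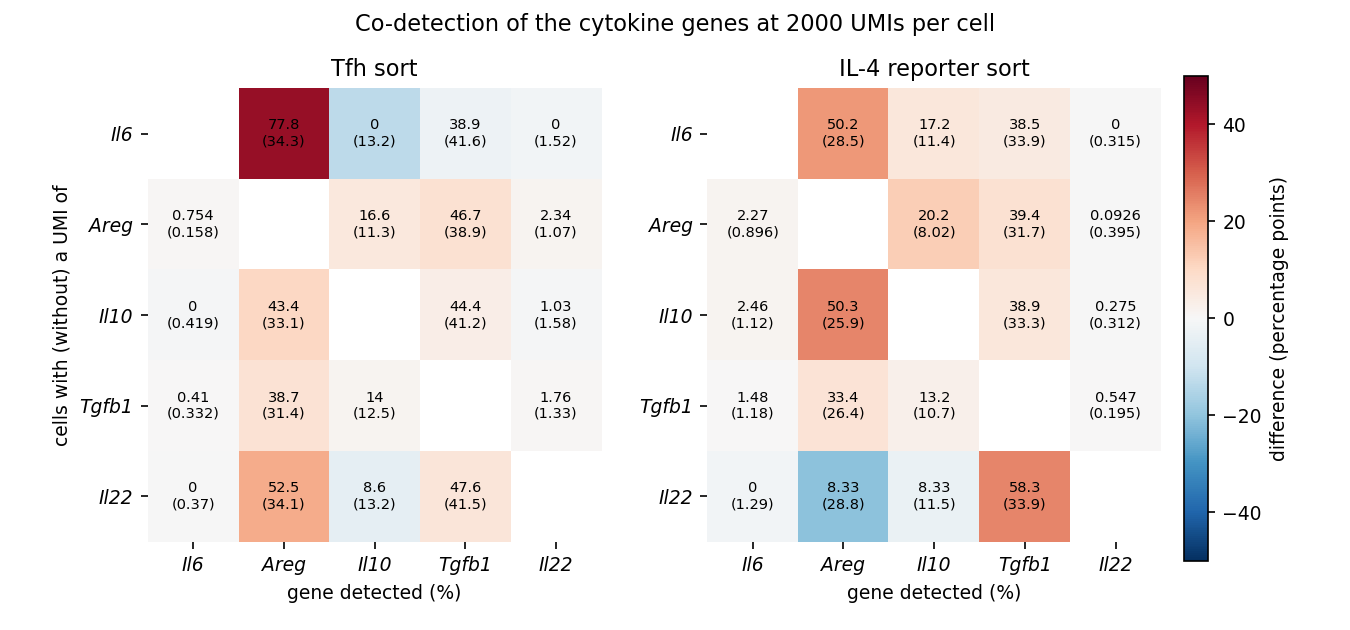
Percent of cells, thinned to 2000 UMIs, with a UMI of the column gene among cells with the row gene and, in brackets, among cells without it, as means over mice for each sort, colour showing the difference in percentage points. Areg was found more often in cells with Il10 than in cells without it in both sorts (43.4% against 33.1% in the Tfh sort and 50.3% against 25.9% in the reporter sort). Il17a is not drawn.

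Co-detection within cells was also read at equal depth, first for pairs with Areg, which is frequent in all cells. Il10 cells of the Tfh sort held Areg in 52.9% against 36.8% (43.4% against 33.1% thinned), and those of the reporter sort in 60.4% against 38.2% (50.3% against 25.9% thinned), higher in 3 of 3 mice of each sort. Il6 cells of the reporter sort held Areg in 75.9% against 41.4% (50.2% against 28.5% thinned), 101 of 134 cells, again in 3 of 3 mice, and in the Tfh sort 18 of 21 Il6 cells did. Il22 cells of the Tfh sort held Areg in 61.9% against 39.3% (52.5% against 34.1% thinned), in 3 of 3 mice. Reporter Il22 cells gave 69.4% against 42.5% (8.33% against 28.8% thinned). Only 10 cells there kept an Il22 UMI after thinning, 1 of them with Areg, so the pair is not settled at equal depth. Il6 with Il10 in the reporter sort was 43.3% against 19.5% (17.2% against 11.4% thinned), 62 of 134 cells, higher in 2 of 3 mice after thinning. Il17a was found in 4.96% of reporter Il6 cells against 0.542% of others (5.73% against 0.258% thinned). That pair was higher in 2 of 3 mice and rests on 8 cells with both, 3 after thinning. Il22 and Il10 were not found together in excess in the Tfh sort (15.3% against 18.0% (8.60% against 13.2% thinned) of Il22 and other cells held Il10). Areg with Tgfb1 gave 62.7% against 50.3% (46.7% against 38.9% thinned) in the Tfh sort and 76.0% against 58.8% (39.4% against 31.7% thinned) in the reporter sort. Free RNA can add UMIs to any cell, and the B-like shares above give its size.

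Counting members per cell, 813, 1232, 825, 220 and 12 Tfh-sort cells held 0 to 4 of the 6, and none held more. In the reporter sort 1 cell held all 6, 7 held 5 and 50 held 4. Of these 58 cells with 4 or more, 53 were Il13-high and 4 had no Il13 UMI, in a sort where Il13-high cells were 629 of 3572. Exactly 3 members were found in 194 Il13-high cells (30.8%) and 166 cells without Il13 (6.35%). Depth differs between these classes as given above, and its part in these counts was not tested.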

How the data were processed

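Single-cell 3′ RNA and hashtag antibody tags were measured on 1 lane of the 10x Genomics system for each sort. As deposited, the gene matrices are unnormalized UMI counts for each barcode, and the hashtag tables are unnormalized tag counts. Per the submitters' processing notes, Cell Ranger 2.2.0 with bcl2fastq 2.18.0.12 and 2.20.0.422 and builds GRCm38 and mm10 were used, and Cell Ranger 3.0.2 stands in the reporter matrix, per the file headers. The annotation release is not given in the sources used here.

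Cells needed at least 500 genes and no more than 10% of UMIs from mitochondrial genes (99.0% of Tfh-sort and 60.0% of reporter barcodes passed), and were assigned to the mouse whose hashtag had 10 or more counts and 3 times the next. The labels name a range with 1 more hashtag than the 3 in each table, and these 3 were taken as the 3 mice. Cells with counts of 2 hashtags (135 and 585) stayed out as doublets or undecided, and doublets within a mouse were not detectable. UMIs were summed per mouse and class (10 or more cells) and tested by the quasi-likelihood method of edgeR 4.0.16 (R 4.3.3), with TMM factors, a minimum count of 10, and the mouse as a block, since each mouse gives both classes. Benjamini-Hochberg adjustment ran over all genes tested at 0.05. CPM beside tests are TMM-scaled. Robust forms of that fit, DESeq2 1.42.0 and comparisons of Il22 cells were used as described in the closing section, and the robust fit and the Il22 comparisons were chosen after seeing the data. Matched depth pairs each cell 1 to 1 with a cell of the other class of the same mouse within 10% of its UMIs. Fits were tested on simulated data. Floors and intervals cover counting error only.

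Named genes were the members, 10 fixed partner genes, list members, and in each carrier comparison the 10 largest rises and 5 largest falls that all 3 mice shared, at 20 CPM or more in the higher class, passing over unnamed gene models, mitochondrial, ribosomal and T-cell receptor genes. The members, classes and gene lists were chosen with earlier results of these data known, which already showed Il6, Il10 and Areg higher in Il13-bearing cells of the Tfh sort.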

Additional observations from a re-analysis of the deposited data

How the results depend on the processing

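The counts of called genes given with each comparison depend on depth and tool more than the members' directions do. Of the members' values under alternatives, 533 stayed on the same side of the threshold, 62 lost their call, 21 gained one and 1 that was called changed sign, and of the fixed partner genes 1112, 116, 24 and 10. Among those that stayed on the same side, 27 member and 48 partner values changed sign without a call in either fit, so their direction is not settled. At matched depth these included Il22 in reporter Il6 (-0.51), Il10 (-0.10) and Areg (-0.41) cells, Tgfb1 in Tfh-sort Foxp3 (0.46) and Il22 (0.39) cells, and the differences between sorts for Il6 (-2.29), Il10 (-0.37) and Il22 (-3.20). By edgeR the main counts were 283 for Tfh-sort Il13, 339 for Tfh-sort Foxp3, 99 for Tfh-sort Il10, 130 for Tfh-sort Areg, 1271 for Tfh-sort Tgfb1, 12 for Tfh-sort Il22, 5806 for reporter Il13, 2252 for reporter Il10, 3717 for reporter Il6, 2958 for reporter Areg, 4566 for reporter Tgfb1, 1187 for reporter Il22 and 650 for the difference between sorts, each named by the gene that splits the cells. DESeq2 called 103 for Tfh-sort Il13, 93 for Tfh-sort Foxp3, 20 for Tfh-sort Il10, 31 for Tfh-sort Areg, 248 for Tfh-sort Tgfb1, 1 for Tfh-sort Il22, 774 for reporter Il10, 2147 for reporter Il6, 948 for reporter Areg, 2650 for reporter Tgfb1, 376 for reporter Il22 and 425 for the difference between sorts. At matched depth the counts were 99 for Tfh-sort Il13, 49 for Tfh-sort Foxp3, 230 for Tfh-sort Areg, 71 for Tfh-sort Tgfb1, 1 for Tfh-sort Il22, 1821 for reporter Il13, 456 for reporter Il10, 328 for reporter Il6, 504 for reporter Areg, 250 for reporter Tgfb1, 16 for reporter Il22 and 45 for the difference between sorts, with fewer cells by construction. With all assigned cells, the T-marked gate dropped, they were 648 for Tfh-sort Foxp3, 200 for Tfh-sort Il10, 524 for Tfh-sort Areg and 45 for Tfh-sort Il22, and with no low-count filter 183 for Tfh-sort Il10 and 246 for Tfh-sort Areg. Without the replicate block they were 36 for Tfh-sort Il10, 846 for reporter Il10, 602 for reporter Areg and 767 for reporter Il22, and among members that change ended the reporter calls for Il6 and Tgfb1 in Il10 cells, Il6 in Areg cells and Il17a in Il10, Areg and Tgfb1 cells. Cells without a Foxp3 UMI gave 55 for Tfh-sort Il10, carriers of 2 or more UMIs 236 for Tfh-sort Areg and 8 for reporter Il22, and cells without an Il13 UMI 621 for reporter Il10 and 826 for reporter Areg.

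Leaving out a mouse gave 104 to 298 for Tfh-sort Il13 (lowest without mouse 2), 85 to 269 for Tfh-sort Foxp3 (lowest without mouse 2), 25 to 140 for Tfh-sort Il10 (lowest without mouse 1), 93 to 116 for Tfh-sort Areg (lowest without mouse 2), 740 to 968 for Tfh-sort Tgfb1 (lowest without mouse 2), 3 to 7 for Tfh-sort Il22 (lowest without mouse 3), 4544 to 5730 for reporter Il13 (lowest without mouse 2), 1312 to 2161 for reporter Il10 (lowest without mouse 3), 2505 to 3366 for reporter Il6 (lowest without mouse 2), 1774 to 2308 for reporter Areg (lowest without mouse 3) and 3112 to 4528 for reporter Tgfb1 (lowest without mouse 3). Without mouse 1 or mouse 2 Tfh-sort Foxp3 fell to 91 and 85, Tfh-sort Il13 had 175 without mouse 1, and Tfh-sort Il22 had 7 and 6 without mice 1 and 2.

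Called values that reversed, as log2 differences, were Ifng in Tgfb1 cells (0.41 in the Tfh sort, 0.35 in the reporter sort) and Il21 in reporter Tgfb1 cells (0.39), all at matched depth. So were Il21 (0.42) and Pdcd1 (0.28) in reporter Il13-high cells, and Ifng (0.91), Il21 (0.95) and Il5 (-0.33) in reporter Il22 cells. Ifng also reversed in reporter Il13-high cells when all assigned cells were used (-0.16), and in Areg cells without an Il13 UMI (0.13). Il17a in reporter Areg cells reversed without replicate 1 (-1.04, the range over left-out mice reaching 1.69). The cause was not tested. RLE in place of TMM factors shifted the median of all genes by more than 0.1 only in the difference between sorts (-0.12). Some alternatives could not be run for want of 10 cells a mouse, namely Foxp3 in the reporter sort and its difference between sorts, Il6 carriers of the Tfh sort, cells with 2 or more Foxp3 UMIs, reporter Il6 cells without Il13, and leaving out a mouse for reporter Il22. The rare members Il6, Il22 and Il17a rest on 21 to 134, 35 to 60 and at most 26 cells.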
